A study of Mus musculus with 9 samples.

Results

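The microglia genes are 10 genes whose RNA in the brain comes mainly from microglia: *Csf1r*, *Cx3cr1*, *Aif1*, *C1qa*, *C1qb*, *C1qc*, *Trem2*, *Tyrobp*, *P2ry12* and *Fcer1g*. They were chosen by name, with earlier results of these data known, and all 10 are among the 14670 genes of the deposited expression table. The study sequenced RNA from the cerebral cortex of embryonic mice on day 16.5 of development (E16.5) to compare mutants of 2 genes of axon guidance. *Fzd3* encodes a Frizzled receptor and *Celsr3* an atypical cadherin of the cell surface, and both act in planar cell polarity signalling. The 3 genotypes were control, *Fzd3* mutant and *Celsr3* mutant, with 3 libraries each. The libraries are numbered 1, 2 and 3 in control and *Fzd3* mutants and 1, 2 and 4 in *Celsr3* mutants.

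Control libraries are labelled +/+ for the gene, while the methods describe control littermates as heterozygous or wild type. Both mutant lines are labelled -/-, carry the mutation in every cell from conception and were kept on a mixed C57Bl/6 and CD1 background, so the mixture of strains can differ from embryo to embryo. The material was whole dissected cortex, with no sorting of cells and no treatment. The labels do not state that the libraries of a genotype came from separate embryos. The methods give at least 3 animals for animal work in general and 3 cortical tissues per genotype for sequencing, without linking a library to an animal. The P values below measure the spread between these samples.

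Microglia are the resident macrophages of the brain. They descend from yolk sac progenitors, enter the brain early in development and depend on signalling through *Csf1r*. In a bulk library of cortex, fewer cells of a type and less RNA in each cell cannot be told apart.

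The mutated genes come first, because they show how far the labels can be checked. *Celsr3* measured 196, 243 and 214 counts per 1000000 reads (CPM) in control libraries, 253, 213 and 255 CPM in *Fzd3* mutants and 122, 139 and 118 CPM in *Celsr3* mutants. All 3 *Celsr3* mutant libraries lay below every other library. The level in *Celsr3* mutants was 0.582 of the control mean, a log2 difference of -0.78 (limma adjusted P = 0.0018, 0.00136 to 0.568 over the alternative analyses). The call was kept by 18 of 20 alternatives, and the unmoderated test (0.568) was among those that lost it. *Fzd3* measured 58.0, 67.7 and 46.9 CPM in control libraries, 46.5, 39.8 and 59.6 CPM in *Fzd3* mutants and 52.1, 61.1 and 54.8 CPM in *Celsr3* mutants. The ranges of control and *Fzd3* mutant libraries overlapped, with library 3 of the mutants above library 1 of the controls. The log2 difference was -0.24 (limma adjusted P = 0.24, 0.0457 to 0.633 over the alternative analyses), and without *Fzd3* mutant library 3 the adjusted P of limma was 0.0457. The table holds 1 value for the whole gene, and the methods describe a deletion of exon 3, so the total level does not check the *Fzd3* label. "*Fzd3* mutant" below therefore means the libraries labelled *Fzd3* -/-.

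All 10 microglia genes were measured well above 3 reads but at low levels. The 10 genes were covered by 42 to 1343 reads per library, and 3 reads correspond to 0.0427 to 0.0752 CPM. *Fcer1g* and *Trem2* averaged 1.62 and 1.98 CPM over all libraries, where the lowest mean of any listed gene was 0.540 CPM. The summed CPM of the 10 genes was 39.5, 46.0 and 44.0 in control libraries, 69.1, 65.5 and 49.3 in *Fzd3* mutant libraries and 43.9, 48.3 and 56.7 in *Celsr3* mutants. Every *Fzd3* mutant library lay above every control library in this sum, and *Celsr3* mutant library 1 lay inside the control range. The mean sums were 43.2 ± 3.31 in control, 61.3 ± 10.5 in *Fzd3* mutants and 49.7 ± 6.51 in *Celsr3* mutants (mean ± SD), or 142% and 115% of control for the mutants. *Csf1r* made up 32.7% of the sum, and without it the percentages were 135 and 108. For comparison, the median gene of the table measured 24.6 CPM, and *Csf1r*, the member with the most reads, stood at percentile 41.6 of all genes by mean CPM. *Fcer1g* stood at percentile 7.41.

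**Figure D1:**
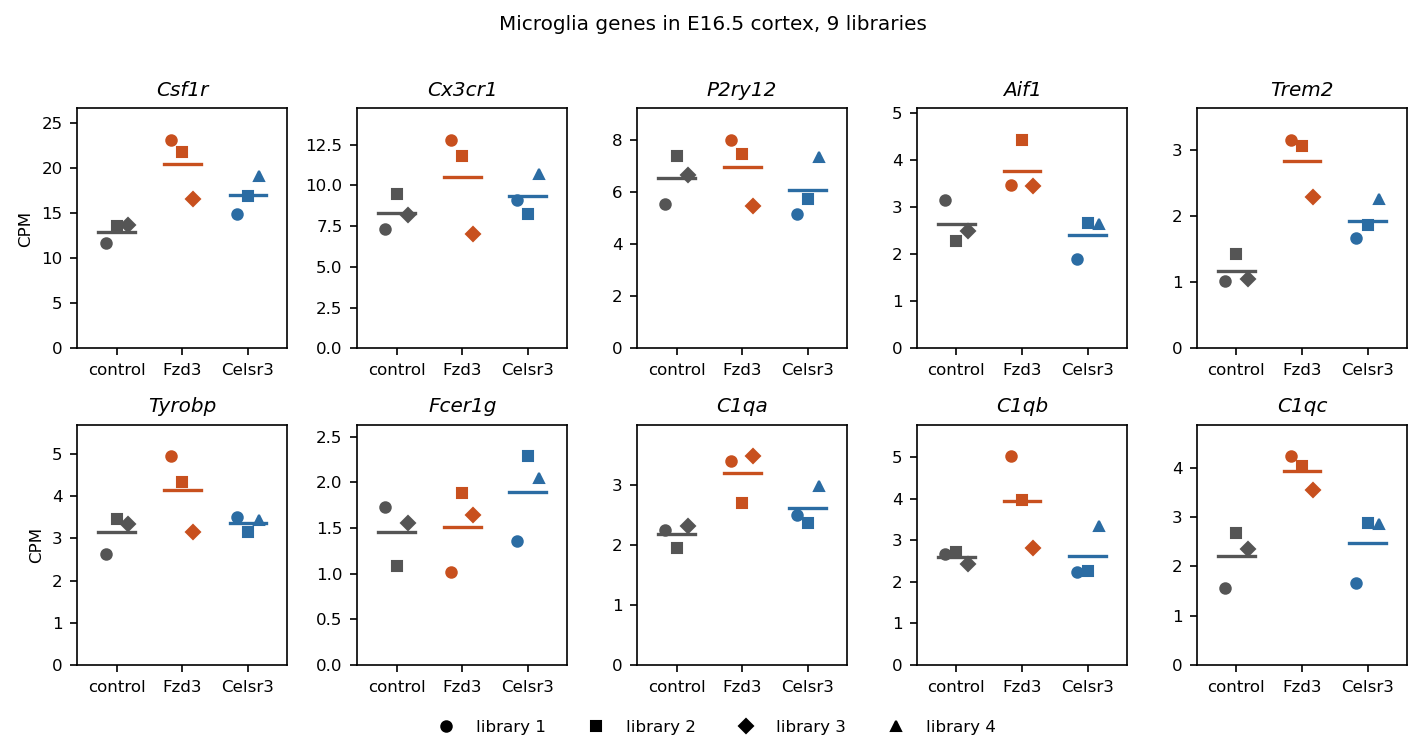
CPM of each microglia gene in each of 9 libraries, with bars at genotype means. *Trem2* averaged 1.17 CPM in control, 2.84 in *Fzd3* mutants and 1.93 in *Celsr3* mutants.

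Levels of different members can be compared only after division by transcript length, here as CPM per kb of exon (union of all exons). In control cortex the order on this scale was *Tyrobp* at 4.71, *P2ry12* at 2.56, *C1qb* at 2.40, *Csf1r* at 2.24, *C1qa* at 2.09, *Cx3cr1* at 1.85, *Aif1* at 1.72, *Fcer1g* at 1.67, *C1qc* at 1.14 and *Trem2* at 0.236 CPM per kb. Only 2 neighbouring pairs in this order had ranges that did not overlap: *Tyrobp* lay above *P2ry12*, and *C1qc* lay above *Trem2*. *Tyrobp* was the highest and *Trem2* the lowest in each genotype, also with the longest transcript as the length. *Trem2* stood at 0.574 CPM per kb in *Fzd3* mutants and 0.391 in *Celsr3* mutants. *P2ry12*, at rank 2 in control, was at rank 5 in both mutants, with 2.73 CPM per kb in *Fzd3* mutants and 2.38 in *Celsr3* mutants. With the longest transcript as the length its ranks were 3 in control, 7 in *Fzd3* mutants and 5 in *Celsr3* mutants.

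The 10 genes lie on 7 chromosomes of build GRCm38. *Csf1r* (XLOC_014796) spans 18:61100598-61132149, *Cx3cr1* (XLOC_034549) 9:119901616-120069879 and *P2ry12* (XLOC_020767) 3:59216272-59262871. *Trem2* (XLOC_013508) spans 17:48346401-48354147, *Tyrobp* (XLOC_028557) 7:30413760-30417585 and *Fcer1g* (XLOC_001792) 1:171229572-171234365. *C1qa* (XLOC_023941) spans 4:136895917-136898803, *C1qc* (XLOC_023940) 4:136889804-136893065, *C1qb* (XLOC_023939) 4:136880129-136886187 and *Aif1* (XLOC_014081) 17:35170991-35176068. Exons of *Csf1r* share 873 bp with *Hmgxb3* on the opposite strand, those of *Cx3cr1* 78 bp with *Gm33858* and those of *P2ry12* 9 bp with *Med12l*. The labels do not state whether strand was used in counting, so reads in these stretches could belong to either gene and the levels of these 3 members are uncertain to that extent. *Hmgxb3* itself measured 52.9, 51.5 and 50.6 CPM in control and 48.8, 46.5 and 55.1 in *Fzd3* mutants, with a log2 difference of -0.05 (limma adjusted P = 0.626).

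Of the 10 microglia genes, 4 rose and 0 fell in *Fzd3* mutants against control at a limma adjusted P below 0.05, and 6 were below an unadjusted P of 0.05. In the whole table the same comparison called 29.8% of genes, 15.0% higher and 14.8% lower (4366 genes, 2199 higher and 2167 lower). Below an unadjusted P of 0.05 were 6067 of the 14670 genes. All 10 log2 differences were positive, with a median of 0.45 beside -0.00 over all genes. In 6 members every *Fzd3* mutant library lay above every control library, an arrangement shown by 21.6% of all genes. These 6 members reached the smallest 2-sided P of 0.1 that an exact permutation test can give with 3 libraries against 3, and the other members gave exact permutation P up to 0.8. Differences are on the scale of log2(CPM + 0.5), which understates the change of low genes. With single libraries left out, the count of called members in limma was 2 without *Fzd3* mutant library 1, 3 without *Fzd3* mutant library 2, 6 without *Fzd3* mutant library 3, 3 without control library 1, 3 without control library 2 and 5 without *Celsr3* mutant library 1.

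**Figure D2:**
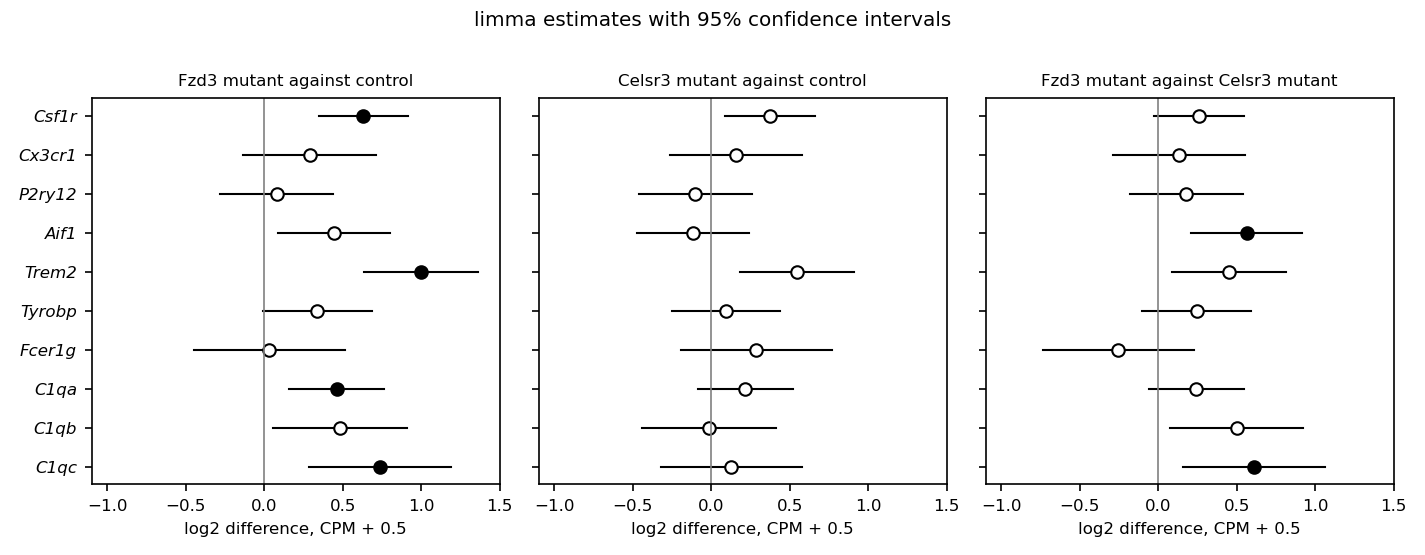
Log2 differences of the microglia genes with 95% confidence intervals in the 3 comparisons, filled where the limma adjusted P was below 0.05. *Trem2* had the largest value in *Fzd3* mutants, 1.00, with an interval from 0.64 to 1.36.

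*Csf1r* encodes the receptor through which microglia receive the survival signals of *Csf1* and *Il34*. It measured 11.6, 13.6 and 13.6 CPM in control libraries, 23.1, 21.8 and 16.5 CPM in *Fzd3* mutants and 14.9, 16.9 and 19.1 CPM in *Celsr3* mutants. All mutant libraries of both genotypes lay above all control libraries, and the 2 mutant genotypes overlapped each other. The mean rose from 12.9 ± 1.14 CPM in control to 20.5 ± 3.51 CPM in *Fzd3* mutants, 1.58-fold, with a log2 difference of 0.63 (95% interval 0.35 to 0.92; limma adjusted P = 0.00425). Over the alternative analyses the adjusted P of limma and its substitutes ran from 0.000787 to 0.0965, and 19 of 20 kept the call. The single loss came from an unmoderated test of each gene by itself.

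*Cx3cr1* and *P2ry12* encode receptors of surveying microglia, *Cx3cr1* for the neuronal chemokine *Cx3cl1* and *P2ry12* for ADP. *Cx3cr1* measured 7.30, 9.46 and 8.20 CPM in control libraries, 12.8, 11.8 and 7.03 CPM in *Fzd3* mutants and 9.08, 8.22 and 10.7 CPM in *Celsr3* mutants. *Fzd3* mutant libraries 1 and 2 were the highest of all 9, library 3 was the lowest, and the genotypes overlapped. Its log2 difference in *Fzd3* mutants was 0.29 (limma adjusted P = 0.285, 0.0128 to 0.677 over the alternatives), and without *Fzd3* mutant library 3 the adjusted P was 0.0128. *P2ry12* measured 5.55, 7.36 and 6.65 CPM in control libraries, 7.99, 7.43 and 5.44 CPM in *Fzd3* mutants and 5.14, 5.73 and 7.33 CPM in *Celsr3* mutants. Each genotype held both high and low libraries, and all 3 ranges overlapped. *P2ry12* was not called: its log2 difference in *Fzd3* mutants was 0.08, with a 95% interval from -0.28 to 0.44 (limma adjusted P = 0.756, 0.292 to 0.944 over the alternatives), and the sign turned in 2 of the 20 alternatives.

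*Trem2*, *Tyrobp* and *Fcer1g* belong to immune receptor complexes, *Trem2* as a lipid-sensing receptor and the other 2 as signalling adaptors. *Trem2* measured 1.02, 1.43 and 1.05 CPM in control libraries, 3.16, 3.07 and 2.29 CPM in *Fzd3* mutants and 1.67, 1.87 and 2.26 CPM in *Celsr3* mutants. The 3 genotypes did not overlap, with control lowest, *Celsr3* mutants between and *Fzd3* mutants highest. Its mean in *Fzd3* mutants was 2.43-fold of control (2.84 ± 0.477 against 1.17 ± 0.227 CPM), the largest change among the members. The log2 difference was 1.00 (95% interval 0.64 to 1.36; limma adjusted P = 0.00128), and all 20 alternatives kept the call, with adjusted P from 0.00113 to 0.0474. *Tyrobp*, the adaptor that *Trem2* signals through, measured 2.64, 3.45 and 3.34 CPM in control libraries, 4.95, 4.34 and 3.15 CPM in *Fzd3* mutants and 3.51, 3.16 and 3.45 CPM in *Celsr3* mutants. *Fzd3* mutant libraries 1 and 2 were highest, and library 3 fell within the control range. The log2 difference of *Tyrobp* was 0.34 (limma adjusted P = 0.129, 0.0241 to 0.393 over the alternatives), with an adjusted P of 0.0241 without *Fzd3* mutant library 3. *Fcer1g*, the gamma chain of Fc receptors, measured 1.73, 1.08 and 1.56 CPM in control libraries, 1.02, 1.88 and 1.64 CPM in *Fzd3* mutants and 1.35, 2.29 and 2.05 CPM in *Celsr3* mutants. High and low libraries occurred in every genotype and the ranges overlapped. *Fcer1g* was not called in *Fzd3* mutants, with a log2 difference of 0.03, a 95% interval from -0.45 to 0.51 (limma adjusted P = 0.933, 0.519 to 0.957 over the alternatives) and a sign that turned in 3 of 20 alternatives.

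*C1qa*, *C1qb* and *C1qc* encode the 3 chains of the complement component C1q, which microglia make in the brain. *C1qa* measured 2.25, 1.95 and 2.31 CPM in control libraries, 3.39, 2.70 and 3.47 CPM in *Fzd3* mutants and 2.50, 2.36 and 2.98 CPM in *Celsr3* mutants. All libraries of both mutants lay above all control libraries. *C1qa* rose 1.47-fold in *Fzd3* mutants, a log2 difference of 0.46 (95% interval 0.16 to 0.76; limma adjusted P = 0.0274, 0.0159 to 0.0942 over the alternatives). It lost the call in 5 of 20 alternatives: the unmoderated test (0.0859) and the analyses without *Fzd3* mutant library 1 (0.0924), *Fzd3* mutant library 3 (0.0771), control library 1 (0.0548) or control library 2 (0.0942). *C1qb* measured 2.66, 2.73 and 2.43 CPM in control libraries, 5.02, 3.97 and 2.81 CPM in *Fzd3* mutants and 2.24, 2.25 and 3.35 CPM in *Celsr3* mutants. *Fzd3* mutants lay above control in every library, library 3 only just, and *Celsr3* mutants overlapped control. The log2 difference of *C1qb* in *Fzd3* mutants was 0.48 (limma adjusted P = 0.0826, 0.0172 to 0.291 over the alternatives), and only without *Fzd3* mutant library 3 was it below 0.05, at 0.0172. *C1qc* measured 1.56, 2.68 and 2.36 CPM in control libraries, 4.23, 4.04 and 3.55 CPM in *Fzd3* mutants and 1.65, 2.88 and 2.85 CPM in *Celsr3* mutants. *Fzd3* mutants lay above all other libraries, and control and *Celsr3* mutants overlapped, each with a low library 1. *C1qc* rose 1.79-fold, a log2 difference of 0.74 (95% interval 0.29 to 1.19; limma adjusted P = 0.0197, 0.00864 to 0.0766 over the alternatives). It lost the call in the unmoderated test (0.0645) and without *Fzd3* mutant library 1 (0.0694), *Fzd3* mutant library 2 (0.0597) or control library 1 (0.0766). Summed over the 3 chains, CPM was 6.47, 7.36 and 7.10 in control, 12.6, 10.7 and 9.83 in *Fzd3* mutant libraries and 6.40, 7.49 and 9.17 in *Celsr3* mutants, 159% and 110.2% of control for the mutant means.

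*Aif1* encodes the calcium-binding protein of ruffling membranes that is stained to show microglia. It measured 3.16, 2.28 and 2.48 CPM in control libraries, 3.46, 4.43 and 3.44 CPM in *Fzd3* mutants and 1.90, 2.67 and 2.63 CPM in *Celsr3* mutants. Every *Fzd3* mutant library exceeded all others, while control and *Celsr3* mutants overlapped. The log2 difference in *Fzd3* mutants was 0.45 (limma adjusted P = 0.0589; unadjusted P = 0.0186), and adjusted P ran from 0.0421 to 0.201 over the alternatives. *Aif1* was below 0.05 without control library 1 (0.0421) and without *Celsr3* mutant library 1 (0.045).

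In *Celsr3* mutants against control, 0 of the 10 microglia genes were called by limma, and 2 members were below an unadjusted P of 0.05. This comparison called 0.307% of all genes, 45 in number, and 800 genes were below an unadjusted P of 0.05. Of the members 7 had positive and 3 negative log2 differences, with a median of 0.14 beside -0.00 over all genes. *Csf1r*, *Trem2* and *C1qa*, 3 members, lay above control in every library, as did 5.14% of all genes. For these members the exact permutation test gave its smallest 2-sided P, 0.1, and for the others up to 1. *Trem2* averaged 1.66-fold of control, with a log2 difference of 0.55 (limma adjusted P = 0.559; unadjusted P = 0.00693; adjusted 0.39 to 0.999 over the alternatives). *Csf1r* averaged 1.31-fold, with a log2 difference of 0.37 (limma adjusted P = 0.74; unadjusted P = 0.0147; adjusted 0.389 to 0.999 over the alternatives). *C1qa* had a log2 difference of 0.22 (limma adjusted P = 0.994), *Fcer1g* 0.29, *Cx3cr1* 0.16, *C1qc* 0.13 and *Tyrobp* 0.09. *C1qb* stood at -0.02, *P2ry12* at -0.10 and *Aif1* at -0.12 (limma adjusted P = 1 for *Aif1*). None of the 20 alternatives called any member in this comparison.

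The *Fzd3* and *Celsr3* comparisons share the same 3 control libraries, so their values are placed side by side and not correlated. The direct comparison of *Fzd3* with *Celsr3* mutants does not use them as a reference. Of the 10 members, 2 were higher and 0 lower in *Fzd3* mutants by limma, and 4 were below an unadjusted P of 0.05. Of all 14670 genes, 6006 were below that unadjusted P. Over all genes this comparison called 29.6% (4346 genes), 15.3% higher in *Fzd3* mutants and 14.3% lower (2247 and 2099 genes). The members had 9 positive and 1 negative log2 differences, median 0.25 beside -0.00 over all genes, and 3 of them lay above *Celsr3* mutants in every library, against 22.3% of all genes. Those 3, *Aif1*, *C1qc* and *Trem2*, gave an exact permutation P of 0.1, 2-sided, and the rest up to 0.7.

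*Aif1* was higher in *Fzd3* than in *Celsr3* mutants by 0.56 log2 units (limma adjusted P = 0.0231, 0.0217 to 0.102 over the alternatives), and 16 of 20 alternatives kept the call. Its losses included the unmoderated test (0.102) and the fits without *Fzd3* mutant library 2 (0.0953) or *Celsr3* mutant library 1 (0.0797). *C1qc* was higher by 0.61 (limma adjusted P = 0.044, 0.0318 to 0.146 over the alternatives), with 11 of 20 alternatives keeping the call. The losses of *C1qc* included a pseudocount of 0.1 (0.0508), the unmoderated test (0.106) and limma without a trend (0.061). It also lost it without *Fzd3* mutant library 1 (0.127), *Fzd3* mutant library 2 (0.111), *Fzd3* mutant library 3 (0.0532), *Celsr3* mutant library 1 (0.146) or control library 3 (0.0505). *Trem2* stood at 0.45 (limma adjusted P = 0.0603, 0.0297 to 0.186 over the alternatives), below 0.05 without a trend (0.0455) and without *Fzd3* mutant library 3 (0.0297). *Csf1r* stood at 0.26 (limma adjusted P = 0.158, 0.0213 to 0.44 over the alternatives) and was below 0.05 without *Fzd3* mutant library 3 (0.0213). *C1qb* stood at 0.50 (limma adjusted P = 0.0743, 0.0154 to 0.281 over the alternatives), and 3 of 20 alternatives called it, among them the fits without *Fzd3* mutant library 3 (0.0154) and *Celsr3* mutant library 4 (0.0357). *C1qa* stood at 0.24, *Tyrobp* at 0.25, *P2ry12* at 0.18, *Cx3cr1* at 0.13 and *Fcer1g* at -0.25, and 0 of these 5 were called by limma in the direct comparison. *Csf1r*, *Trem2* and *C1qa*, called in *Fzd3* mutants against control, were thus not called by limma between the mutants, although *Trem2* did not overlap between them.

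The libraries of a genotype differed in the same direction across most members. *Fzd3* mutant library 3 was the lowest of its genotype in 8 of 10 microglia genes, and *Fzd3* mutant library 1 the highest in 7. Among the companion lists described below, library 3 was also lowest in 9 of 11 phagocyte state genes and 5 of 5 macroglia markers. It was lowest in 3 of 7 progenitor and 1 of 5 cortical neuron markers. The share over all genes was not counted. *Celsr3* mutant library 1 was the lowest of its genotype in 7, and *Celsr3* mutant library 4 the highest in 6 and the lowest in 0. Control library 1 was the lowest control in 6. The coefficient of variation of *Cx3cr1* was 13.02% in control, 29.3% in *Fzd3* mutants and 13.6% in *Celsr3* mutants, and that of *C1qb* 5.89%, 28.1% and 24.4%.

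Dividing each member by the summed CPM of the 10 shows the make-up of the group separately from its total. The share of *Csf1r* was 29.4, 29.5 and 31.0% in control libraries, 33.5, 33.3 and 33.5% in *Fzd3* mutant libraries and 33.9, 35.0 and 33.7% in *Celsr3* mutants. Both mutants lay above control in every library. The share of *Trem2* was 2.58, 3.11 and 2.39% in control libraries, 4.57, 4.68 and 4.64% in *Fzd3* mutant libraries and 3.80, 3.87 and 3.99% in *Celsr3* mutants. It too was above control in every library of both mutants, and the mutants did not overlap each other. *P2ry12* was the opposite, with 14.0, 16.0 and 15.1% in control libraries, 11.6, 11.3 and 11.0% in *Fzd3* mutant libraries and 11.7, 11.9 and 12.9% in *Celsr3* mutants. Both mutants lay below control in every library. The share of *C1qc* was 3.95, 5.82 and 5.36% in control, 6.11, 6.17 and 7.20% in *Fzd3* mutant libraries and 3.76, 5.97 and 5.02% in *Celsr3* mutants, above control only in *Fzd3* mutants. The shares of the other 6 members overlapped between genotypes. On the same scale, CPM divided by this sum put 2.77% of all genes above control in every *Fzd3* mutant library and 57.6% below, and 0.518% above and 15.8% below in *Celsr3* mutants. The sum itself was 142% and 115% of control in the mutants, so division by it lowers most genes and sets these percentages. No test was run on the shares.

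**Figure D3:**
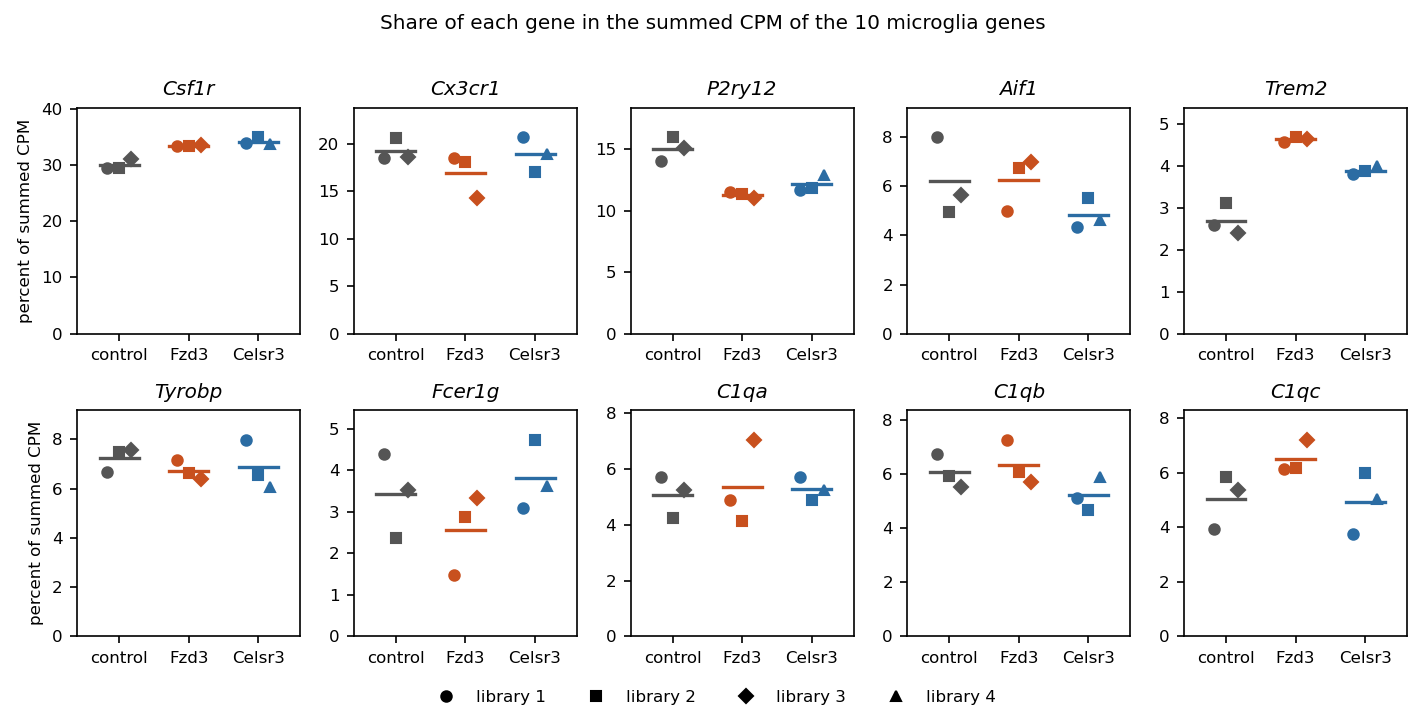
Share of each microglia gene in the summed CPM of the 10, library by library. The mean share of *Trem2* was 2.69% in control, 4.63% in *Fzd3* mutants and 3.89% in *Celsr3* mutants, and that of *P2ry12* 15.0%, 11.3% and 12.2%.

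The 3 C1q genes sit side by side on the minus strand of chromosome 4, with 3616 bp between *C1qb* and *C1qc* and 2851 bp between *C1qc* and *C1qa*. Of the neighbouring pairs of microglia genes, *P2ry13* lies 5389 bp from *P2ry12*. *P2ry13* measured 2.27, 1.86 and 2.11 CPM in control and 2.49, 1.77 and 1.91 CPM in *Fzd3* mutants. The ranges of *P2ry13* overlapped, and its log2 difference was -0.02 (limma adjusted P = 0.937), beside 0.08 for *P2ry12*.

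Promoters of microglia genes commonly carry the purine-rich core bound by the macrophage factor PU.1, so the bases upstream of members were searched for it. RefSeq sequence of 250 bases upstream was available for 7 of the 10 members on build GRCm38.p6, and both strands were searched. The short core AGGAAG, or its reverse complement CTTCCT, occurred in 5 of these 7 and in 29.5% of 32851 mouse promoters of the same length. The long core GAGGAAGT, which contains AGGAAG, occurred in 1 of 7, *C1qc*, where it lies on the reverse strand, and in 2.4% of promoters. The windows run upstream of the RefSeq start, and that of *Cx3cr1*, with 0 of these cores, lies inside the gene span annotated by GENCODE. The sequences below are given on the annotated strand of the gene, from upstream to downstream, with AGGAAG and CTTCCT in capitals. A check of this strand gave a match for *C1qc* and *Trem2*, but none on either strand for *C1qb* and *P2ry12*. Their regions on GRCm38.p6 are chr4:136886201-136886450 for *C1qb* (minus strand), chr4:136893066-136893164 for *C1qc* (minus strand, 99 bases upstream of the annotated gene), chr17:48346151-48346400 for *Trem2* (plus strand) and chr3:59262986-59263235 for *P2ry12* (minus strand). A motif in a promoter does not show that a factor was bound in these samples.
C1qb: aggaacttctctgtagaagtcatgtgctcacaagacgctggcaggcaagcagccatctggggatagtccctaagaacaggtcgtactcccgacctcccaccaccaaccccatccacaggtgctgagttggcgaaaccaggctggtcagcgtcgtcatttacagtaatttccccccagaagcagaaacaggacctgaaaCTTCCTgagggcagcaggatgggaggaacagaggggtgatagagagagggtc
C1qc: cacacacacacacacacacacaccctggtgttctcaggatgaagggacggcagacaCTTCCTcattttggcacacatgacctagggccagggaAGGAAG
Trem2: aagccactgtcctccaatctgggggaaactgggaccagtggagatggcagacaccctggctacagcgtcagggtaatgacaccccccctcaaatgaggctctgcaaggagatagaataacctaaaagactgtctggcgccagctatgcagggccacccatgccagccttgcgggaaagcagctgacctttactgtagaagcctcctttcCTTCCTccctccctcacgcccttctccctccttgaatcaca
P2ry12: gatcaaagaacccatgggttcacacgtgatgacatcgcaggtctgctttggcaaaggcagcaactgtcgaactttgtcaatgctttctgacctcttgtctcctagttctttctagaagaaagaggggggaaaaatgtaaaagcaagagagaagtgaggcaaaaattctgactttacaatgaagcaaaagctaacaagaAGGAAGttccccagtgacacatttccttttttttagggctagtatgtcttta

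Beyond the 10 members, 15 lists of companion genes were examined, starting with other genes of microglia. Counts of called genes in each list are to be read beside the shares over all genes. These were 15.0% higher and 14.8% lower in *Fzd3* mutants, 0.307% in *Celsr3* mutants, and 15.3% higher and 14.3% lower in the direct comparison. For an unadjusted P below 0.05 the counts over all 14670 genes were 6067 in *Fzd3* mutants and 800 in *Celsr3* mutants. Of 24 other microglia genes 16 are listed, and *Tmem119*, *P2ry6*, *Selplg*, *Cd33*, *Ptprc*, *Bin2*, *Havcr2* and *Adgre1* were not analysed here. In *Fzd3* mutants 6 of the 16 rose and 0 fell by limma (7 below an unadjusted P of 0.05), with a median log2 difference of 0.26. In *Celsr3* mutants limma called 0 (4 below an unadjusted P of 0.05) and the median was 0.21, and in the direct comparison 1 was higher and 0 lower, median 0.04. *Ly86* measured 1.31, 1.41 and 2.03 CPM in control, 5.88, 5.12 and 3.59 CPM in *Fzd3* mutants and 3.02, 2.16 and 2.49 CPM in *Celsr3* mutants. The 3 genotypes of *Ly86* did not overlap, in the same order as *Trem2*. Its log2 difference in *Fzd3* mutants was 1.35 (limma adjusted P = 0.00054, 0.000318 to 0.0618 over the alternatives). *Fcrls*, *Cd68*, *Unc93b1*, *Laptm5* and *Cd53* also rose in *Fzd3* mutants, by log2 differences of 0.52, 0.48, 0.53, 0.29 and 0.61. All 5 lost their calls in limma without *Fzd3* mutant library 1, at adjusted P of 0.0668, 0.0711, 0.111, 0.125 and 0.108. Without control library 2 limma gave 0.0542 for *Fcrls*, 0.0692 for *Cd68*, 0.0508 for *Laptm5* and 0.103 for *Cd53*. Without *Fzd3* mutant library 2 it gave 0.0609 for *Fcrls*, 0.123 for *Unc93b1*, 0.139 for *Laptm5* and 0.111 for *Cd53*. Control library 1 mattered for *Fcrls* (0.056), *Unc93b1* (0.0947) and *Laptm5* (0.0963), control library 3 for *Unc93b1* (0.0961), *Laptm5* (0.0962) and *Cd53* (0.0989), *Celsr3* mutant library 2 for *Laptm5* (0.0544) and *Cd53* (0.0502) and *Fzd3* mutant library 3 for *Cd53* (0.0504). Other calls were gained. Without *Fzd3* mutant library 3 limma called *Gpr34* (0.0321, with 0.0321 to 0.592 over the alternatives) and *Itgam* (0.0167, with 0.0167 to 0.937) against control. The same fit called *Fcrls* (0.0179, with 0.0179 to 0.407) and *Unc93b1* (0.0390, with 0.0390 to 0.290) in the direct comparison. *Itgb2* was called against control without control library 2 (0.0322, with 0.0322 to 0.359), and *Slc2a5* was lower in the direct comparison without *Celsr3* mutant library 2 (0.0492, with 0.0492 to 0.420). The most abundant gene of the list, *Lgmn*, is also made by other cells, and it measured 44.1, 43.6 and 51.6 CPM in control and 47.1, 45.8 and 37.4 CPM in *Fzd3* mutants. Those ranges overlapped, and the log2 difference of *Lgmn* was -0.10 (limma adjusted P = 0.455). The summed CPM of the 16 was 83.8, 87.8 and 94.9 in control, 111, 107 and 85.8 in *Fzd3* mutant libraries and 91.3, 97.6 and 104 in *Celsr3* mutants, with *Lgmn* at 47.2% of it. As among the members, *Fzd3* mutant library 3 was the lowest of its genotype in 12 of the 16 and *Celsr3* mutant library 4 the highest in 11.

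**Figure D4:**
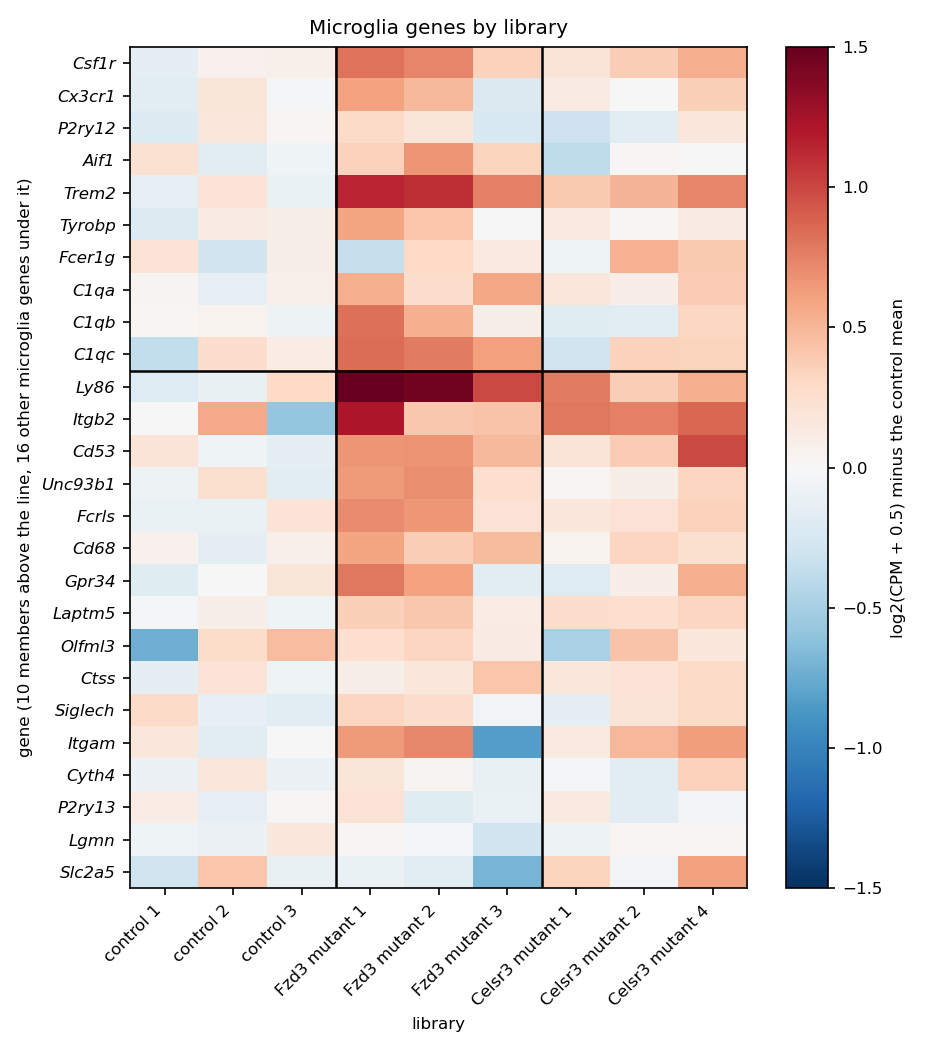
Log2(CPM + 0.5) of the 10 microglia genes and 16 other microglia genes in each library, relative to the control mean. *Ly86*, at the top of the lower block, had a log2 difference of 1.35 in *Fzd3* mutants and 0.56 in *Celsr3* mutants.

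Transcription factors that set the microglia state were represented by 3 of 8 genes, and *Spi1*, *Irf8*, *Runx1*, *Ikzf1* and *Cebpa* were not analysed here. In *Fzd3* mutants 0 rose and 1 fell by limma (2 below an unadjusted P of 0.05, median 0.01), in *Celsr3* mutants limma called 0 (0 below an unadjusted P of 0.05, median 0.04), and in the direct comparison 0 were higher and 1 lower (median -0.03). *Sall1*, the most abundant of the 3 and also made by cortical progenitors, measured 43.6, 49.4 and 39.6 CPM in control, 27.3, 28.1 and 32.2 CPM in *Fzd3* mutants and 36.3, 43.0 and 44.4 CPM in *Celsr3* mutants. It lay below every other library in *Fzd3* mutants and fell by -0.59 (limma adjusted P = 0.00133, 0.000966 to 0.0611 over the alternatives). The direct log2 difference of *Sall1* from *Celsr3* mutants was -0.49 (limma adjusted P = 0.00393). *Irf5*, next in abundance, measured 15.5, 13.7 and 15.4 CPM in control and 14.7, 14.4 and 15.7 CPM in *Fzd3* mutants. Its ranges overlapped, and its log2 difference was 0.01 (limma adjusted P = 0.931). The third gene, *Bhlhe41*, was called by limma in *Fzd3* mutants only without control library 2 (0.0491, with 0.0491 to 0.260 over the alternatives). The summed CPM of the 3 was 59.5, 63.9 and 55.5 in control, 43.1, 43.5 and 49.0 in *Fzd3* mutant libraries and 51.5, 60.0 and 60.4 in *Celsr3* mutants, with *Sall1* at 70.7% of it.

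Ligands and niche signals for microglia were covered by 8 of 9 genes, without *Il34*, which was not analysed here. In *Fzd3* mutants 2 rose and 0 fell by limma (3 below an unadjusted P of 0.05, median 0.26), in *Celsr3* mutants limma called 0 (0 below an unadjusted P of 0.05, median 0.08), and in the direct comparison 2 were higher and 0 lower (median 0.13). *Csf1*, the listed ligand of *Csf1r*, measured 8.84, 7.90 and 9.66 CPM in control, 9.29, 9.72 and 7.67 CPM in *Fzd3* mutants and 9.001, 8.998 and 9.54 CPM in *Celsr3* mutants. All its ranges overlapped, and the log2 difference of *Csf1* in *Fzd3* mutants was 0.01 (limma adjusted P = 0.946). *Cx3cl1*, the ligand of *Cx3cr1*, measured 8.71, 8.47 and 10.4 CPM in control, 15.5, 10.8 and 10.8 CPM in *Fzd3* mutants and 8.10, 9.67 and 8.06 CPM in *Celsr3* mutants. *Fzd3* mutants lay above all other libraries, at a log2 difference of 0.40 from control (limma adjusted P = 0.0566), and limma without *Fzd3* mutant library 3 or control library 3 gave 0.0392 and 0.0401. *Tgfbr1*, most abundant here and widely made in cortex, measured 160.5, 140.4 and 136 CPM in control, 194, 183 and 183 CPM in *Fzd3* mutants and 170.0, 148 and 156 CPM in *Celsr3* mutants. It was higher than control in every *Fzd3* mutant library, with a log2 difference of 0.36 (limma adjusted P = 0.0025, 0.00118 to 0.0567 over the alternatives). The other called gene, *Tgfbr2*, rose by 0.50 (limma adjusted P = 0.0301, 0.00518 to 0.110 over the alternatives). It lost the call without *Fzd3* mutant library 1 (0.110) or 3 (0.053) or without control library 1 (0.0786), 2 (0.0577) or 3 (0.0654). The summed CPM of the 8 was 222, 204 and 203 in control, 280.3, 259 and 256 in *Fzd3* mutant libraries and 238, 212 and 246 in *Celsr3* mutants, and *Tgfbr1* made up 69.3% of it. *Cxcl12*, next in abundance, measured 43.9 CPM in *Celsr3* mutant library 4 and 22.0 to 25.8 CPM in the other *Celsr3* mutants. Its log2 difference in *Fzd3* mutants was 0.33 (limma adjusted P = 0.227, 0.0183 to 0.468 over the alternatives), and limma without *Celsr3* mutant library 4 gave 0.0194. Limma also called, between the mutants, *Tgfb2* without *Fzd3* mutant library 3 (0.0273, with 0.0273 to 0.240 over the alternatives) and *Tgfbr2* without *Celsr3* mutant library 4 (0.0424, with 0.0424 to 0.896).

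Partners of the adaptors *Tyrobp* and *Fcer1g*, among them kinases, phosphatases and an Fc receptor, were covered by 8 of 15 genes. *Hcst*, *Btk*, *Fcgr1*, *Fcgr2b*, *Fcgr4*, *Sirpb1a* and *Cd300a* were not analysed here. In *Fzd3* mutants 1 rose and 0 fell by limma (3 below an unadjusted P of 0.05, median 0.32), in *Celsr3* mutants limma called 0 (2 below an unadjusted P of 0.05, median 0.22), and in the direct comparison 1 was higher and 0 lower (median 0.05). *Syk*, the kinase that both adaptors recruit, measured 1.68, 2.43 and 2.68 CPM in control, 3.53, 3.995 and 3.09 CPM in *Fzd3* mutants and 2.37, 2.59 and 2.22 CPM in *Celsr3* mutants. The *Fzd3* mutants were highest in every library, and *Syk* rose by 0.56 (limma adjusted P = 0.0223, 0.0144 to 0.116 over the alternatives). It lost the call without *Fzd3* mutant library 1 (0.0626), *Fzd3* mutant library 2 (0.0874) or control library 1 (0.0792). *Lyn* and *Inpp5d*, the most abundant of the list, had log2 differences of 0.28 and 0.32 in *Fzd3* mutants and were not called by limma (adjusted P = 0.0796 and 0.191). *Lyn* gave 0.042 in limma without a trend, and *Inpp5d* 0.0487 in limma without *Fzd3* mutant library 3, beside 0.042 to 0.251 and 0.0487 to 0.510 over the alternatives. *Ptpn6* was called by limma against control without the same library (0.0330, with 0.0330 to 0.240 over the alternatives). The summed CPM of the 8 was 13.9, 17.1 and 18.6 in control, 23.7, 22.0 and 18.1 in *Fzd3* mutant libraries and 19.2, 19.6 and 21.3 in *Celsr3* mutants.

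Complement genes other than C1q were covered by 8 of 15, and *C1ra*, *C1rl*, *C1s1*, *C2*, *C3*, *C4b* and *C5ar1* were not analysed here. In *Fzd3* mutants 4 rose and 1 fell by limma (6 below an unadjusted P of 0.05, median 0.48), in *Celsr3* mutants limma called 0 (1 below an unadjusted P of 0.05, median 0.03), and in the direct comparison 3 were higher and 1 lower (median 0.18). *Serping1*, the inhibitor of the C1 complex to which C1q belongs, measured 7.90, 7.36 and 8.48 CPM in control, 5.16, 3.87 and 5.98 CPM in *Fzd3* mutants and 6.40, 7.11 and 7.70 CPM in *Celsr3* mutants. *Fzd3* mutants lay below all other libraries, and *Serping1* fell by -0.63 (limma adjusted P = 0.00666, 0.00268 to 0.0723 over the alternatives) while *C1qa* and *C1qc* rose. *Csmd3*, a complement regulator of neurons, measured 21.8, 18.4 and 17.9 CPM in control, 33.1, 26.2 and 28.9 CPM in *Fzd3* mutants and 23.2, 20.3 and 18.3 CPM in *Celsr3* mutants. It lay above all other libraries in *Fzd3* mutants and rose by 0.59 (limma adjusted P = 0.0027, 0.000937 to 0.0704 over the alternatives), with a direct log2 difference of 0.50 from *Celsr3* mutants (limma adjusted P = 0.00617). *C3ar1* and *Csmd1* also rose in *Fzd3* mutants, by 0.56 and 0.44. In limma *C3ar1* lost its call without *Fzd3* mutant library 1 (0.0588), *Fzd3* mutant library 2 (0.05004) or control library 2 (0.054), and *Csmd1* without *Fzd3* mutant library 1 (0.157), *Fzd3* mutant library 3 (0.0603), control library 1 (0.111) or control library 2 (0.101). *Cd55* rose by 0.53 (limma adjusted P = 0.0452, 0.0328 to 0.156 over the alternatives), a call that 10 of 20 alternatives kept. It was lost in limma without *Fzd3* mutant library 2 (0.136) or 3 (0.118), *Celsr3* mutant library 1 (0.0562), 2 (0.0615) or 4 (0.053), or control library 1 (0.0912) or 3 (0.136). The most abundant gene, *Csmd2*, had a log2 difference of 0.27 (limma adjusted P = 0.0617) and made up 50.3% of the summed CPM. In limma it gave 0.0394 without *Fzd3* mutant library 2 and 0.0228 without *Celsr3* mutant library 4 (0.0228 to 0.223 over the alternatives), and in the direct comparison 0.0478 without *Fzd3* mutant library 2 (0.0478 to 0.321 over the alternatives). That sum was 96.5, 97.9 and 94.1 in control, 137, 109 and 119 in *Fzd3* mutant libraries and 104, 104 and 95.6 in *Celsr3* mutants.

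Genes linked to a phagocytic state were covered by 11 of 17. Which cells made their RNA was not tested: *Ctsb* averaged 193 CPM over all libraries, beside 1.98 CPM for *Trem2*. *Gpnmb*, *Clec7a*, *Itgax*, *Lgals3*, *Cst7* and *Ctsd* were not analysed here. In *Fzd3* mutants 7 rose and 2 fell by limma (9 below an unadjusted P of 0.05, median 0.38), in *Celsr3* mutants limma called 0 (2 below an unadjusted P of 0.05, median 0.11), and in the direct comparison 5 were higher and 1 lower (median 0.24). *Apoe* measured 22.8, 23.0 and 25.1 CPM in control, 46.5, 40.7 and 37.2 CPM in *Fzd3* mutants and 26.6, 26.3 and 35.1 CPM in *Celsr3* mutants. The 3 genotypes of *Apoe* did not overlap, and it rose by 0.79 in *Fzd3* mutants (limma adjusted P = 0.000493, 0.000101 to 0.0395 over the alternatives). *Ctsb* measured 168, 171 and 179 CPM in control, 229, 222 and 207 CPM in *Fzd3* mutants and 181, 191 and 184 CPM in *Celsr3* mutants. It did not overlap between genotypes either, and it rose by 0.35 in *Fzd3* mutants (limma adjusted P = 0.000388, 0.000264 to 0.0395 over the alternatives). *Gas6* measured 11.8, 9.80 and 12.6 CPM in control, 20.3, 19.3 and 16.7 CPM in *Fzd3* mutants and 12.4, 11.7 and 11.7 CPM in *Celsr3* mutants. Only the *Fzd3* mutants stood apart, with a log2 difference of 0.70 from control (limma adjusted P = 0.00068, 0.000638 to 0.0483 over the alternatives) and of 0.63 from *Celsr3* mutants (limma adjusted P = 0.0014). *Axl*, a receptor for *Gas6*, measured 15.9, 16.1 and 16.4 CPM in control, 11.8, 11.1 and 12.1 CPM in *Fzd3* mutants and 15.0, 14.4 and 17.8 CPM in *Celsr3* mutants. It was lowest in the *Fzd3* mutants, where it fell by -0.45 (limma adjusted P = 0.00287, 0.00134 to 0.0191 over the alternatives), and its direct log2 difference from *Celsr3* mutants was -0.41 (limma adjusted P = 0.00475).

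*Ctsl*, *Igf1*, *Spp1* and *Mertk* of the same list rose by 0.38, 0.88, 1.17 and 0.77 in *Fzd3* mutants. *Spp1* lost its call in limma without *Fzd3* mutant library 1 (0.0597), *Fzd3* mutant library 2 (0.0647) or control library 2 (0.0578), and *Mertk* without the same 3 libraries (0.0532, 0.0807 and 0.0663). *Igf1*, a growth factor of early microglia, measured 1.46, 1.00 and 2.08 CPM in control, 4.09, 2.89 and 2.58 CPM in *Fzd3* mutants and 1.22, 0.798 and 1.37 CPM in *Celsr3* mutants. Its *Fzd3* mutant libraries were the 3 highest, with limma adjusted P = 0.0139 against control, rising to 0.0647 without *Fzd3* mutant library 1 and 0.0554 without control library 2. *Fabp5*, made in many cells, measured 370.2, 327 and 398 CPM in control and 311, 332 and 311 CPM in *Fzd3* mutants. Its ranges overlapped, and it fell by -0.20 at a limma adjusted P of 0.0435, a call that 9 of 20 alternatives kept (0.00594 to 0.219). Limma lost it without *Fzd3* mutant library 1 (0.128), 2 (0.0536) or 3 (0.0987), *Celsr3* mutant library 2 (0.0602), control library 1 (0.114) or control library 3 (0.135). Between the mutants limma called *Fabp5* lower without control library 2 (0.0230) or 3 (0.0381), with 0.0224 to 0.198 over the alternatives, and *Mertk* higher without control library 2 (0.0469, with 0.0469 to 0.3003). Without *Fzd3* mutant library 3 it called *Ctsl* there (0.00255, with 0.00255 to 0.261) and *Cd63* against control (0.0415, with 0.0415 to 0.408). *Fabp5* made up 46.4% of the summed CPM of the list, which was 714, 699 and 778 in control, 782, 787 and 721 in *Fzd3* mutant libraries and 742, 743 and 771 in *Celsr3* mutants.

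Most of the 10 members are also made by macrophages at the border of the brain, and *P2ry12* is the member most restricted to microglia. Markers of border macrophages were covered by 4 of 12, and *Cd163*, *Lyve1*, *Pf4*, *F13a1*, *Ms4a7*, *Cbr2*, *Folr2* and *Clec10a* were not analysed here. In *Fzd3* mutants 1 rose by limma (1 below an unadjusted P of 0.05, median 0.48), in *Celsr3* mutants limma called 0 (2 below an unadjusted P of 0.05, median 0.50), and in the direct comparison 1 was higher (median 0.04). *Mrc1* measured 1.45, 1.02 and 1.25 CPM in control, 1.37, 1.64 and 2.92 CPM in *Fzd3* mutants and 2.22, 1.94 and 10.9 CPM in *Celsr3* mutants. *Celsr3* mutant library 4 stood far above the rest. *Stab1* did likewise, with 23.1 CPM in that library and 11.5 and 11.8 CPM in the other *Celsr3* mutants, and its log2 difference in *Fzd3* mutants was 0.43 (limma adjusted P = 0.171, 0.0202 to 0.366 over the alternatives). *Dab2* measured 3.95, 3.27 and 4.67 CPM in control, 6.18, 6.997 and 6.41 CPM in *Fzd3* mutants and 4.16, 3.63 and 11.9 CPM in *Celsr3* mutants. Its *Fzd3* mutants lay above all control libraries, with a log2 difference of 0.67 (limma adjusted P = 0.145, 0.00442 to 0.323 over the alternatives). With *Celsr3* mutant library 4 left out of the shared fit, limma also called *Dab2* (0.00442) and *Stab1* (0.0202) in *Fzd3* mutants, 3 of the 4 markers with *Maf*. The same fit called *Dab2* between the mutants at a log2 difference of 0.68 (0.0108, with 0.0108 to 0.996 over the alternatives), beside 0.18 with that library (limma adjusted P = 0.716). *Maf*, which made up 61.3% of the summed CPM and is also made by interneurons, measured 32.4, 29.3 and 29.0 CPM in control, 46.3, 46.9 and 36.1 CPM in *Fzd3* mutants and 31.4, 27.6 and 28.0 CPM in *Celsr3* mutants. It lay above all other libraries in *Fzd3* mutants and rose by 0.50 (limma adjusted P = 0.00335, 0.000331 to 0.099 over the alternatives), with a direct log2 difference of 0.56 (limma adjusted P = 0.00196). The sum was 48.3, 43.5 and 44.6 in control, 68.0, 66.8 and 61.5 in *Fzd3* mutant libraries and 49.3, 44.9 and 73.9 in *Celsr3* mutants.

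Blood monocytes and granulocytes were covered by *Lyz2* alone of 9 markers, and *Ccr2*, *Ly6c2*, *S100a8*, *S100a9*, *Plac8*, *Mpo*, *Elane* and *Ngp* were not analysed here. *Lyz2*, also made by macrophages and microglia, measured 0.751, 0.838 and 0.778 CPM in control, 2.46, 2.22 and 2.62 CPM in *Fzd3* mutants and 1.45, 1.69 and 1.64 CPM in *Celsr3* mutants. The 3 genotypes did not overlap, in the order seen for *Trem2*. *Lyz2* rose by 1.19 in *Fzd3* mutants (limma adjusted P = 0.00013, 3.83e-05 to 0.0177 over the alternatives). In *Celsr3* mutants its log2 difference was 0.70 (limma adjusted P = 0.0719; unadjusted P = 0.00026; adjusted 0.00329 to 0.58 over the alternatives). Lymphocytes and mast cells were covered by *Kit* alone of 7 markers, with *Cd3e*, *Cd3g*, *Cd79a*, *Nkg7*, *Cpa3* and *Tpsb2* not analysed here. *Kit*, also made by neurons, measured 82.4, 91.6 and 73.1 CPM in control, 71.2, 63.8 and 72.8 CPM in *Fzd3* mutants and 81.2, 86.5 and 87.9 CPM in *Celsr3* mutants. *Fzd3* mutants lay below all other libraries, and *Kit* fell by -0.24 (limma adjusted P = 0.0361, 0.00651 to 0.216 over the alternatives). That call was lost in limma without *Fzd3* mutant library 1 (0.0664), *Fzd3* mutant library 2 (0.136), control library 1 (0.0877) or control library 2 (0.134). In the direct comparison limma called *Kit* lower (adjusted P = 0.0148). Among the fits with a library left out, that call was lost without *Fzd3* mutant library 2 (0.0637) or *Celsr3* mutant library 4 (0.0522). In *Celsr3* mutants limma called 0 of either list, while limma without a trend called *Lyz2* (0.00329).

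Vessels and blood were looked at because microglia lie close to both. All 10 endothelial markers are listed. In *Fzd3* mutants 5 rose and 0 fell by limma (7 below an unadjusted P of 0.05, median 0.49), in *Celsr3* mutants limma called 0 (2 below an unadjusted P of 0.05, median 0.14), and in the direct comparison 4 were higher and 0 lower (median 0.26). *Flt1* rose by 0.85, *Slco1c1* by 0.63, *Kdr* by 0.58 and *Cldn5* by 0.53 in *Fzd3* mutants, and *Ly6c1* by 0.92 (limma adjusted P = 0.00054, 0.00148, 0.0049, 0.00879 and 0.0444). Without *Celsr3* mutant library 4 limma also called *Esam* (0.00909) and *Tek* (0.0185), at log2 differences of 0.45 and 0.37 in *Fzd3* mutants, and without *Celsr3* mutant library 1 *Esam* (0.0391). Over the alternatives these 2 genes ranged from 0.00909 to 0.176 and from 0.0185 to 0.276. The call of *Ly6c1*, kept by 10 of 20 alternatives, was lost in limma without *Fzd3* mutant library 1 (0.136), *Fzd3* mutant library 2 (0.159), *Celsr3* mutant library 1 (0.0513), *Celsr3* mutant library 4 (0.0532), control library 2 (0.160) or control library 3 (0.0853). In the direct comparison *Kdr* was not called by limma without *Fzd3* mutant library 1 (0.0831), *Fzd3* mutant library 2 (0.0767) or *Celsr3* mutant library 2 (0.0637). Nor was *Ly6c1* there without *Fzd3* mutant library 1 (0.0952), *Fzd3* mutant library 2 (0.109), *Celsr3* mutant library 2 (0.101) or *Celsr3* mutant library 4 (0.0539). Without *Celsr3* mutant library 4 limma called *Esam* (0.0113, with 0.0113 to 0.464 over the alternatives), *Tek* (0.0205, with 0.0205 to 0.781) and *Cldn5* (0.0291, with 0.0291 to 0.756) between the mutants. Summed CPM of the endothelial markers was 140.0, 138 and 145 in control, 206, 206 and 182 in *Fzd3* mutant libraries and 144, 129.9 and 182 in *Celsr3* mutants, with *Kdr* at 23.4% of it. For the *Fzd3* mutants this was 140.4% of the control mean, beside 142% for the 10 microglia genes.

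Mural and meningeal markers were covered by 8 of 9, with *Lum* not analysed here. In *Fzd3* mutants limma called 0 (4 below an unadjusted P of 0.05, median 0.27), in *Celsr3* mutants limma called 0 (2 below an unadjusted P of 0.05, median 0.28), and in the direct comparison 1 was higher (median -0.00). The summed CPM was 65.4, 70.0 and 65.1 in control, 89.0, 90.2 and 74.0 in *Fzd3* mutant libraries and 72.9, 68.4 and 161 in *Celsr3* mutants, with *Rgs5*, at 40.9%, the most abundant and *Pdgfrb* next. *Celsr3* mutant library 4 held 49.4 CPM of the meningeal collagen *Col1a2* against 3.49 and 2.25 CPM in the other *Celsr3* mutants, and 13.03 CPM of *Dcn* against 1.72 and 2.07. The same library had the highest level of its genotype in 6 of the 10 microglia genes. *Dcn* and *Col1a1* also had higher means in *Fzd3* mutants than in control. *Dcn* measured 1.35, 0.854 and 1.10 CPM in control and 2.81, 2.89 and 2.88 CPM in *Fzd3* mutants, and *Col1a1* 1.21, 5.35 and 0.778 CPM and 8.45, 8.12 and 4.85 CPM. *Dcn* did not overlap between the 2 genotypes and *Col1a1* did. *Col1a2* measured 2.004, 3.78 and 3.54 CPM in control and 3.27, 3.63 and 2.21 CPM in *Fzd3* mutants. Its ranges overlapped, with a log2 difference of -0.01 (95% interval -1.80 to 1.78, limma adjusted P = 0.994), and *Foxc1* had 0.15 (limma adjusted P = 0.625). *Dcn* had a log2 difference of 1.08 (limma adjusted P = 0.14, 0.000669 to 0.285 over the alternatives) and *Col1a1* of 1.67 (limma adjusted P = 0.12, 0.00586 to 0.292 over the alternatives). With *Celsr3* mutant library 4 left out of the shared fit, limma called both in *Fzd3* mutants (0.000669 and 0.0339). Without *Fzd3* mutant library 3 it called *Pdgfrb* (0.0144) and *Cspg4* (0.0187), with ranges of 0.0144 to 0.303 and 0.0187 to 0.265 over the alternatives. The 1 gene called in the direct comparison was *Cspg4*, lost in limma without *Fzd3* mutant library 1 (0.123), *Fzd3* mutant library 2 (0.0609), *Celsr3* mutant library 2 (0.0989) or *Celsr3* mutant library 4 (0.0809). Without that last library limma called *Kcnj8* there (0.0325, with 0.0325 to 0.279 over the alternatives). Red blood cell markers were covered by 6 of 9, with *Hbb-b1*, *Hbb-b2* and *Hba-x* not analysed here. In *Fzd3* mutants 0 rose and 1, the embryonic globin *Hbb-y*, fell by limma (median 0.10), in *Celsr3* mutants limma called 0 (0 below an unadjusted P of 0.05, median 0.15), and in the direct comparison 0 were higher and 1 lower. The call of *Hbb-y* was lost in limma without *Fzd3* mutant library 1 (0.0772), 2 (0.0521) or 3 (0.0894) or without control library 1 (0.0667) or 2 (0.127). Between the mutants *Hbb-y* lost it without *Fzd3* mutant library 1 (0.0729) or 3 (0.0833) or *Celsr3* mutant library 1 (0.080) or 4 (0.115). Summed over the 6 markers, CPM was 1765, 1917 and 2039 in control, 2285, 2443 and 1569 in *Fzd3* mutant libraries and 2416, 1584 and 2536 in *Celsr3* mutants, with *Hba-a1*, at 31.2%, the most abundant and *Hbb-bs* next. *Fzd3* mutant library 3, the lowest of its genotype in 8 of 10 microglia genes, was the lowest in 6 of 6 red blood cell markers. *Celsr3* mutant library 2 was likewise the lowest of its genotype in 6 of 6 of these markers, but in 3 of 10 microglia genes.

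**Figure D5:**
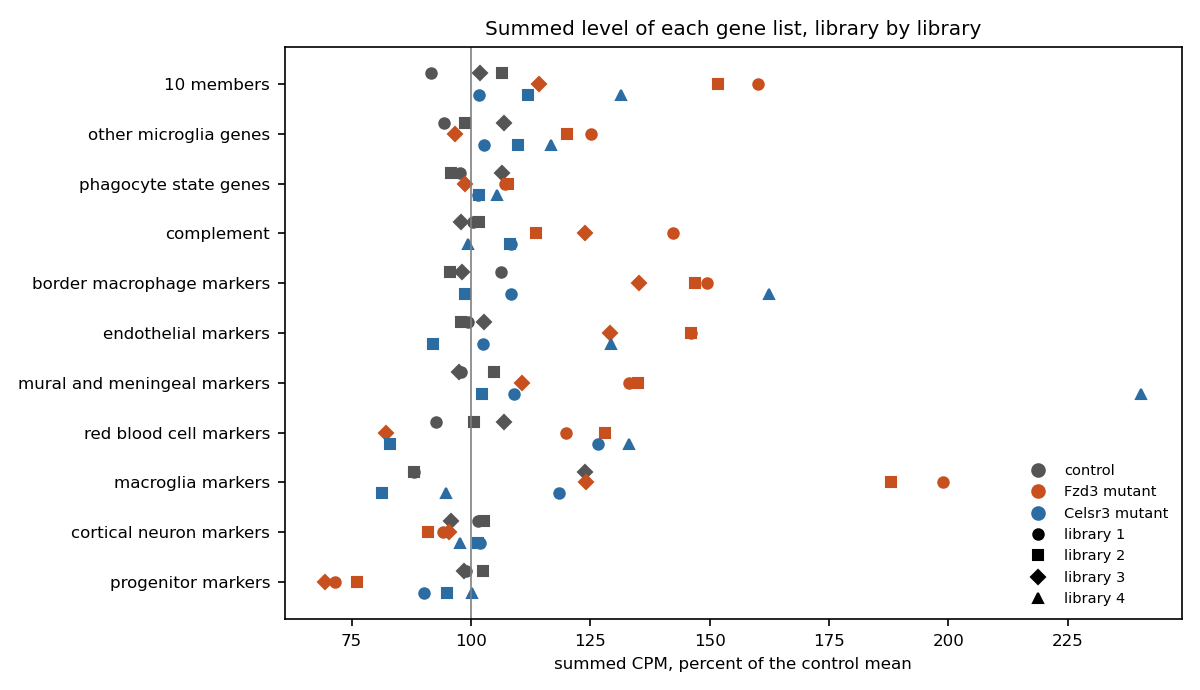
Summed CPM of the 10 microglia genes and of 10 companion lists in each library, as a percentage of the control mean. The 10 members averaged 142% of control in *Fzd3* mutants and 115% in *Celsr3* mutants.

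The cells of the cortex itself gave the remaining lists. Cortical neuron markers were covered by 5 of 6, with *Tubb3* not analysed here. In *Fzd3* mutants 0 rose and 4 fell by limma (median -0.22), in *Celsr3* mutants limma called 0 (2 below an unadjusted P of 0.05, median -0.00), and in the direct comparison 0 were higher and 4 lower (median -0.24). *Bcl11b*, *Tbr1* and *Neurod6* fell by -0.46, -0.27 and -0.22 against control (limma adjusted P = 0.000351, 0.00345 and 0.00151). *Neurod2* fell by -0.14 (limma adjusted P = 0.0361, 0.0164 to 0.160 over the alternatives), a call that 11 of 20 alternatives kept. It was lost with columns scaled to 1000000 (0.0503) and in limma without *Fzd3* mutant library 1 (0.105) or 3 (0.0991), *Celsr3* mutant library 2 (0.0531), or control library 1 (0.0786) or 2 (0.133). In the direct comparison *Bcl11b* lost its limma call without *Fzd3* mutant library 2 (0.0554) or *Celsr3* mutant library 2 (0.0549). For the 5 neuron markers the summed CPM was 3807, 3860.3 and 3596 in control, 3531, 3413 and 3583 in *Fzd3* mutant libraries and 3828, 3809 and 3667 in *Celsr3* mutants, with *Dcx*, at 52.5%, the most abundant. All 7 progenitor markers are listed, and 0 rose and 6 fell by limma in *Fzd3* mutants (median -0.66). In *Celsr3* mutants limma called 0 of the 7 (0 below an unadjusted P of 0.05, median -0.06), and 6 were lower in the direct comparison (median -0.58). *Vim* fell by -0.62 and *Pax6* by -0.70 (limma adjusted P = 8.14e-05 and 0.00012). Their summed CPM was 1405, 1457 and 1401 in control, 1016, 1083 and 988 in *Fzd3* mutant libraries and 1282, 1351 and 1425 in *Celsr3* mutants, with *Fabp7*, at 34.1%, the most abundant. Macroglia markers were covered by 5 of 7, with *Gfap* and *Aqp4* not analysed here. In *Fzd3* mutants 4 rose and 0 fell by limma (median 0.73), in *Celsr3* mutants limma called 0 (0 below an unadjusted P of 0.05, median -0.15), and in the direct comparison 3 were higher and 0 lower (median 0.65). *Olig1* rose by 1.08 (limma adjusted P = 0.00375). *Aldh1l1*, *Olig2* and *Pdgfra* rose by 0.58, 0.98 and 0.73 (limma adjusted P = 0.0215, 0.0309 and 0.0399). These 3 lost their calls in limma without *Fzd3* mutant library 1 (0.0767, 0.122 and 0.155), *Fzd3* mutant library 2 (0.0771, 0.116 and 0.130), control library 1 (0.0863, 0.0973 and 0.0895) or control library 2 (0.0631, 0.0869 and 0.142). Over the alternatives they ranged from 0.00657 to 0.120, from 0.00326 to 0.188 and from 0.00446 to 0.221. Between the mutants limma without *Fzd3* mutant library 3 called 5 instead of 3, adding *Pdgfra* (0.0114, with 0.0114 to 0.326 over the alternatives) and *Sox10* (0.0193, with 0.0193 to 0.446). For the 5 macroglia markers the summed CPM was 41.9, 42.0 and 58.9 in control, 94.7, 89.5 and 59.1 in *Fzd3* mutant libraries and 56.4, 38.7 and 45.2 in *Celsr3* mutants, with *Aldh1l1*, at 42.0%, the most abundant and *Pdgfra* next. What part any of these cell types had in the levels of the microglia genes was not tested.

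The results rest on 3 libraries per genotype from whole cortex at 1 age, and they describe RNA of 10 genes, not numbers of microglia. In *Fzd3* mutants 29.8% of all genes were called, so 4 called members of 10 is to be read beside that share. *Fzd3* mutant library 3 sat lower than its partners in most members, and several calls depend on single libraries. *Celsr3* mutant library 4 had high meningeal genes. In *Fzd3* mutants 7 of 8 mural and meningeal markers had positive log2 differences, beside 7316 of 14670 over all genes, and limma called 0 of the 8. The means of *Dcn* and *Col1a1* were higher, and *Col1a2* had a log2 difference of -0.01. The summed CPM of these markers was 126% of control in *Fzd3* mutants, and their part was not tested. In *Celsr3* mutants 0 members were called by limma with 2 below an unadjusted P of 0.05. The microglia genes *Tmem119* and *Spi1* and the ligand gene *Il34* were not analysed here. No position, cell count or protein was measured in these data.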

How the data were processed

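RNA of 9 libraries was measured, 3 per genotype, in 1 deposited table of 14670 genes, of which 23 symbols occur more than once. The authors deposited values in counts per 1000000 reads (CPM), scaled to each library, and the table holds no gene with a mean below 0.540 CPM. The processing notes name FastQC, TopHat, TopHat2, Bowtie, Cufflinks 2.1.1 and edgeR 2.12, and list builds GRCm38 and GRCh37 without saying which step used which. Depth was read from the smallest step between CPM values and came to 39857305 to 69600589 reads on the listed genes per library. By the same step 3 reads equal 0.0427 to 0.0752 CPM.

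Differences were tested with limma 3.58.1 in R 4.3.3 on log2(CPM + 0.5), with all 9 libraries in 1 fit, a trend in the variances, 2-sided P and Benjamini-Hochberg adjustment over 14670 genes at 0.05. The fit was tested on simulated data. Exact permutation tests compared 3 libraries with 3. Tables were written with pandas 2.3.3 and numpy 2.4.6 in Python 3.11.15 and drawn with matplotlib 3.10.9. Gene positions and lengths came from GENCODE M21 on GRCm38, and upstream sequence from RefSeq on GRCm38.p6.

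The 20 alternatives per comparison were a pseudocount of 0.1 or 1, a filter at a mean of 1 CPM or none (the latter repeats the analysis itself with all libraries, as no gene has a mean below 0.5 CPM), columns scaled to 1000000, by TMM or to the same median, only the 2 genotypes compared, a block for library number, an unmoderated test per gene on CPM, limma without a trend and each of 9 libraries left out. Low values stepped in whole reads, but the authors deposited CPM, and no test on counts was run.

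The members and the 15 companion lists (other microglia genes, transcription factors, ligands and niche signals, adaptor partners, complement, phagocyte state, and markers of border macrophages, monocytes and granulocytes, lymphocytes and mast cells, endothelium, mural and meningeal cells, red blood cells, neurons, progenitors and macroglia) were chosen with earlier results of these data known. Some genes of these lists are not reported here, and the counts and sums of the lists leave them out. Named genes are all 10 members, *Fzd3* and *Celsr3*, and of each list the 2 most abundant and those past the threshold, in order of adjusted P as room allowed.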

Additional observations from a re-analysis of the deposited data

Results flagged for a closer look

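The direct comparison of *Fzd3* with *Celsr3* mutants separated 19 genes at a limma adjusted P below 0.05 among the members and the lists of microglia, signals, adaptor partners, complement, phagocyte state, border macrophages and monocytes. Genes of the other lists and *Celsr3* itself are not counted here. The groups counted held 10 members, 16 other microglia genes, 3 transcription factors, 8 signals, 8 adaptor partners and 8 complement genes. They also held 11 genes of the phagocyte state, 4 border macrophage markers and 1 monocyte marker. Over all genes this comparison called 29.6%, and the 19 are to be read beside that share. Among the genes counted here, the called ones made up no larger a share. The 19 differences between the 2 mutants follow as log2 differences. Among the 10 microglia genes they were *Aif1* at 0.56 and *C1qc* at 0.61. Among other microglia genes and their transcription factors they were *Ly86* at 0.80 and *Sall1* at -0.49. Signals and adaptor partners gave *Cx3cl1* at 0.48, *Tgfbr1* at 0.24 and *Syk* at 0.48. Complement genes gave *C3ar1* at 0.52, *Serping1* at -0.48, *Csmd1* at 0.50 and *Csmd3* at 0.50. Genes of the phagocyte state gave *Spp1* at 0.94, *Igf1* at 1.17, *Apoe* at 0.50, *Ctsb* at 0.24, *Axl* at -0.41 and *Gas6* at 0.63. The border macrophage and monocyte lists gave *Maf* at 0.56 and *Lyz2* at 0.49.

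Of the companion genes among these, *Sall1*, *Csmd3*, *Igf1*, *Apoe*, *Ctsb*, *Axl* and *Maf* kept the call in 19 of 20 alternatives and *Gas6* in 20. The others depended more on the analysis. *Syk* kept it in 11 (limma adjusted P = 0.044, 0.0232 to 0.187 over the alternatives), *Spp1* in 12 (limma adjusted P = 0.0421, 0.0166 to 0.219) and *Serping1* in 14 (limma adjusted P = 0.0257, 0.00869 to 0.133). *Cx3cl1*, *Tgfbr1* and *C3ar1* kept it in 15, *Csmd1* and *Lyz2* in 16 and *Ly86* in 17. In limma without *Fzd3* mutant library 1 the call was lost by *Syk* (0.105), *Spp1* (0.120), *Serping1* (0.0543), *Cx3cl1* (0.0899), *Tgfbr1* (0.0778), *C3ar1* (0.0764), *Csmd1* (0.0991), *Lyz2* (0.0569) and *Ly86* (0.0505). Without *Fzd3* mutant library 2 it was lost by *Syk* (0.149), *Spp1* (0.135), *Serping1* (0.0901) and *C3ar1* (0.0646), and without *Fzd3* mutant library 3 by *Lyz2* (0.0535). Without *Celsr3* mutant library 1 it was lost by *Syk* (0.0904), *Spp1* (0.136), *Cx3cl1* (0.071) and *Lyz2* (0.0579), and without *Celsr3* mutant library 2 by *Syk* (0.0691), *Serping1* (0.0684), *Tgfbr1* (0.0809) and *C3ar1* (0.0829). Without *Celsr3* mutant library 4 it was lost by *Syk* (0.121), *Spp1* (0.111), *Serping1* (0.0881), *Cx3cl1* (0.0801), *Tgfbr1* (0.0587), *C3ar1* (0.0787) and *Csmd1* (0.0778). Control libraries mattered through the shared fit, with *Spp1* lost without control library 1 (0.0596) and *Syk* without control library 2 (0.0506).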

How the results depend on the processing

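Over 600 alternative results for the 10 members, 566 kept their side of the threshold, 23 lost a call, 11 gained 1 and 0 reversed. For the companion and mutated genes 5863 of 6171 kept it, 240 lost a call, 68 gained 1 and 0 reversed. A result counted as reversed only where its sign turned and at least 1 of the 2 analyses called it. Turned signs of uncalled genes are therefore among the results that kept their side. The 4 called members in *Fzd3* mutants against control became 1 in the unmoderated test, and the 4366 called genes became 1793. The 45 genes called in *Celsr3* mutants became 6 in that test. In the direct comparison 4346 genes became 1941 and the 2 members became 0 in that test, and the members became 1 with a pseudocount of 0.1. The cause was not tested.

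Leaving out 1 library at a time gave 2958 to 4312 genes and 2 to 6 members in *Fzd3* mutants, 39 to 53 genes and 0 to 0 members in *Celsr3* mutants, and 2971 to 4471 genes and 0 to 4 members in the direct comparison. The cause was not tested.

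Library numbers were tried as a replicate block, although numbers did not pair the libraries: *Fzd3* mutants and controls of the same number correlated at -0.07, -0.15 and -0.20. *Celsr3* mutants share only numbers 1 and 2 with the others, and there the same numbers correlated at 0.07 and -0.01 with control and at 0.19 and -0.08 with *Fzd3* mutants. With the block, 3629 genes and 4 members were called in *Fzd3* mutants, 29 genes and 0 members in *Celsr3* mutants and 2101 genes and 1 member in the direct comparison. The block gave adjusted P of 0.0639 for *Aif1*, 0.0542 for *C1qc* and 0.0257 for *C1qb* in the direct comparison. Of the other genes listed above for that comparison, the block lost the calls of *Ly86* (0.069), *Cx3cl1* (0.151), *Syk* (0.187), *C3ar1* (0.107), *Serping1* (0.0578), *Csmd1* (0.156), *Spp1* (0.219) and *Lyz2* (0.113). In the other lists it lost those of *Kit* (0.136), *Cspg4* (0.123), *Hbb-y* (0.234), *Tbr1* (0.0771), *Bcl11b* (0.0709) and *Aldh1l1* (0.106). Against control it lost *Laptm5* (0.0516), *Cd55* (0.0719), *Fabp5* (0.0716), *Mertk* (0.0511) and *Kit* (0.0746) in *Fzd3* mutants, and in *Celsr3* mutants *Celsr3* itself (0.0699). It also gained calls. In the direct comparison these were *Dab2* (0.0347), *Tek* (0.0284), *Esam* (0.0379), *Col1a1* (0.0205) and *Unc93b1* (0.0482). In *Fzd3* mutants against control they were *Dcn* (0.00248), *Col1a1* (0.00586), *Dab2* (0.00931), *Esam* (0.0197), *Cxcl12* (0.0226), *Stab1* (0.028), *Tek* (0.0282) and *Csmd2* (0.0443). The cause was not tested.

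Scaling of the columns moved no called member.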
